A study of Arabis alpina with 12 samples.

Results

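The genes described here had a far higher share of reads in shoot apex than in leaf of Arabis alpina, a perennial plant related to Arabidopsis; no other organ was compared. A gene belonged to the set when log2((mean CPM in wild-type apex + 1)/(mean CPM in wild-type leaf + 1)) was 4 or more. CPM (counts per 1000000 counted reads of a library) was taken from 1 transcript row per gene. Of 35465 genes, 35 met this rule. Groups of 3 libraries each were sequenced: shoot apices of the pep1-1 mutant, shoot apices of wild type (WT), leaves of pep1-1 and leaves of WT, all of the accession Pajares. Plants were grown on soil at 22 °C in long days, were 2 weeks old per the sample labels (10 days in the series design text) and were harvested at ZT8. PEP1 is the Arabis alpina orthologue of the Arabidopsis flowering repressor FLC. Effects of the mutation and of anything else that distinguishes the mutant line from Pajares cannot be told apart. Mutant libraries carry PEP1 in their titles, and their direction rests on the genotype label. The labels do not say how much young leaf tissue an apex sample held, nor whether replicates were separate plants, so the p-values capture the spread between samples alone, possibly a technical one.

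The shoot apex holds the apical meristem, a small dome of dividing cells from which leaves, stem and, after the floral transition, flowers are formed. Arabidopsis genes that keep meristem cells undifferentiated, such as class I KNOX genes, are active there and switched off in expanded leaf blades. FLC delays flowering by repressing genes that promote the transition in both leaf and apex. The files do not pair identifiers with gene names, so no role could be given to any of the 35 genes. For the same reason neither PEP1 itself nor named markers of meristem or leaf could be used to check the labels. At most 2 identifiers per direction are therefore printed for a comparison, and other genes are given by position as the files state it.

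Libraries held 19746210 to 43695184 counted reads. Within each group no library was a copy of another: replicates had a chi-square of 5.38 to 83.2 per degree of freedom. In pep1-1 apex the 35 genes together took 2.04%, 2.28% and 3.13% of the reads, against 1.85%, 2.12% and 2.43% in WT apex. In pep1-1 leaf they took 0.126%, 0.134% and 0.174%, against 0.100%, 0.0756% and 0.0761% in WT leaf. The apex libraries of both genotypes lay far above all leaf libraries, and the 3 pep1-1 leaf libraries lay above the 3 WT leaf libraries. The gap in WT follows from the rule that chose the genes. That rule also favours genes low in WT leaf, which leans the leaf comparison upward. In whole-organ samples, fewer cells of a type and less RNA per cell cannot be told apart.

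The WT ratios that chose the genes ranged on the log2 scale from 4.03 to 6.43, with a median of 4.41. They are a description, since every member had to pass the threshold on the same libraries. A gene needs at least 15 CPM in WT apex to reach it, and 9237 genes had that level, of which the 35 were 0.379%. Just inside the threshold lay genes on chromosome 3 (3581610 to 3583977) at 4.05, chromosome 6 (14478184 to 14483535) at 4.03 and chromosome 1 (13197820 to 13200454) at 4.03. Just outside lay genes on chromosome 8 (2344851 to 2345552) at 3.99, chromosome 1 (346654 to 347680) at 3.94 and chromosome 7 (24861053 to 24861717) at 3.89. The threshold cuts a continuous range of values, and the added 1 CPM favours genes with many reads. The chromosome 7 gene just outside had 15.4 CPM in WT apex and 0.104 CPM in WT leaf, a steeper ratio of means than that of the member on chromosome 8 (9564898 to 9571836), with 1123 CPM in WT apex and 61.6 CPM in WT leaf.

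Reads were spread unevenly over the set. The 3 genes with most reads in WT apex took between 66.1% and 70.8% of the set's reads in pep1-1 apex libraries and between 65.3% and 67.9% in WT apex libraries. CPM is not corrected for transcript length, which the files do not give, so these shares describe reads and not the relative abundance of transcripts. Aa_G593160 on chromosome 3 (283964 to 288520) stood at 7724, 8218 and 9673 CPM in pep1-1 apex and at 6494, 7783 and 7691 CPM in WT apex. In leaf it stood at 624, 648 and 875 CPM in pep1-1 and at 413, 311 and 298 CPM in WT. In both genotypes all leaf libraries lay far below all apex libraries, and the pep1-1 leaf libraries lay above the WT ones. The rule required the gap in WT and favours low values in WT leaf. The gene on chromosome 8 (20012448 to 20015883) had 3875, 5103 and 7600 CPM in pep1-1 apex and 3254, 4440 and 5057 CPM in WT apex. That on chromosome 4 (10512174 to 10513228) had 1877, 2246 and 4866 CPM in pep1-1 apex and 2350, 2198 and 3608 CPM in WT apex. The genotypes overlapped in apex for all 3 of these genes.

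The remaining genes covered a wide range. Mean levels of 7 genes exceeded 1000 CPM in pep1-1 apex, as did those of 6 in WT apex, and 18 genes in pep1-1 apex and 19 in WT apex lay between 10 and 100 CPM. The median over the set was 86.9 CPM in pep1-1 apex and 82.2 CPM in WT apex. The highest ratio of the set belonged to Aa_G180310 on chromosome 7 (24939160 to 24941576), with 1004, 1005 and 1184 CPM in pep1-1 apex, 687, 799 and 1009 CPM in WT apex, 18.2, 12.4 and 13.2 CPM in pep1-1 leaf, and 7.86, 4.99 and 13.1 CPM in WT leaf. The genotypes overlapped for this gene in both organs, though only narrowly.

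**Figure D1:**
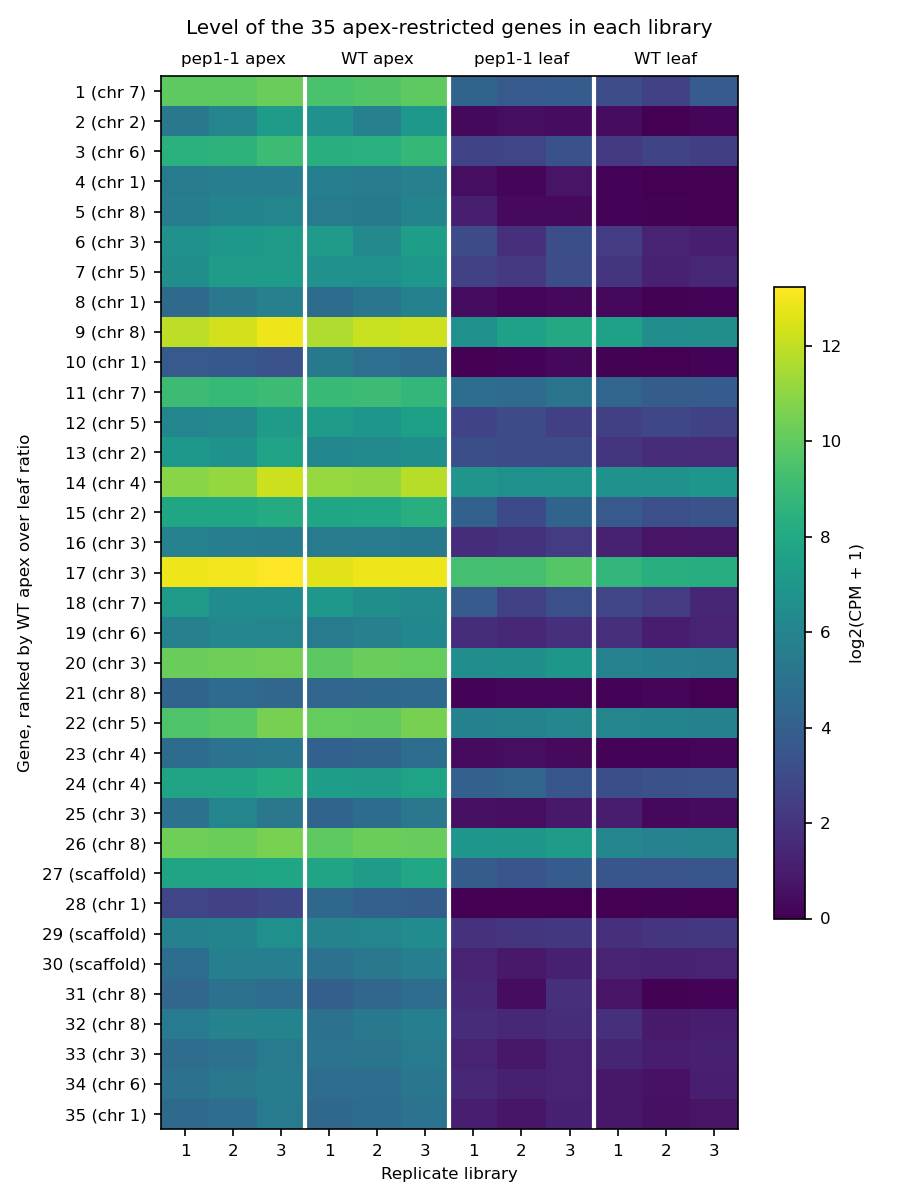
Level of each of the 35 genes (rows, ranked by the WT apex over leaf ratio, with their chromosome) in the 12 libraries (columns, 3 replicates per group), as log2(CPM + 1) from dark to bright. Apex columns are brighter than leaf columns in all 35 rows, which for WT follows from the rule.

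Apex libraries differed among themselves for many of the genes. The coefficient of variation between replicates had a median of 19.0% in pep1-1 apex and 20.5% in WT apex. In leaf the median was larger, at 25.6% in pep1-1 and 36.0% in WT. Replicate 3 was the highest of the 3 libraries for 26 of 35 genes in pep1-1 apex and for 27 of 35 in WT apex. Among the 9237 genes of like WT apex level, replicate 3 was the highest for 37.6% in pep1-1 apex and for 34.0% in WT apex. In pep1-1 leaf, replicate 3 was the highest for 20 of 35 genes, beside 31.7% of those 9237. In WT leaf, replicate 1 was the highest for 23 of 35, beside 36.5%. The widest spread at 10 CPM or more in pep1-1 apex was that of the gene on chromosome 2 (27376666 to 27377610), with 39.1, 64.6 and 157 CPM in pep1-1 apex and 101, 54.0 and 134 CPM in WT apex. The chromosome 4 gene (10512174 to 10513228) and the gene on chromosome 5 (2956813 to 2958077) followed, with coefficients of 54.4% and 47.4% in pep1-1 apex and 28.5% and 19.8% in WT apex. What set replicate 3 apart in apex and pep1-1 leaf, or replicate 1 in WT leaf, was not tested.

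The pep1-1 libraries did not enter the ratio that chose the genes, so the organ difference was tested on them. Their reads did count towards the transcript taken for each gene, which bears on the 3 members with several transcripts. All 35 genes were higher in pep1-1 apex than in pep1-1 leaf by the quasi-likelihood test of edgeR with Benjamini-Hochberg adjustment over all genes tested, with adjusted p from 1.66e-07 to 9.22e-05. In that comparison 31.9% of 23003 genes were called higher, so organ differences were common in these samples. On pep1-1 leaf reads alone, 27 of the 35 passed the filter on low counts. The other 8 entered through their apex reads and so had to differ. The median log2 fold change was 4.96 over those 27 genes, beside -0.04 over all genes tested. In each of the 35 genes the lowest apex library lay above the highest leaf library, as for 14.8% of genes with reads. Aa_G180310 had a log2 fold change of 6.74 (SE 0.21, edgeR adjusted p = 2.19e-07), and Aa_G593160 one of 4.14 (SE 0.20, edgeR adjusted p = 7.39e-07). These edgeR values use TMM scaling, which raises every apex over leaf value by 0.57 in pep1-1 and 0.53 in WT on the log2 scale relative to the library totals used in the rule.

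With the formula of the rule applied to pep1-1 libraries, 23 of the 35 genes reached 4 or more and 34 reached 3 or more. Over all genes the share at 4 or more in pep1-1 was 0.0761%, and among the genes outside the set it was 0.0113%, or 4 genes. The median ratio of the set was 4.15 in pep1-1 and 4.41 in WT, and 29 of 35 genes had the lower ratio in pep1-1. Genes picked for a high value in one set of libraries tend to have a lower one in another set, and this lean was built into the comparison. The lowest value of the formula in pep1-1 was 2.71, for a gene on chromosome 1 (6361358 to 6363818) that had 0 reads in pep1-1 leaf. Its value is set by its apex level and the added 1 CPM and is no sign of a weaker preference. A gene on chromosome 8 (9564898 to 9571836) and another on chromosome 8 (36320864 to 36324768) followed, both at 3.33.

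**Figure D2:**
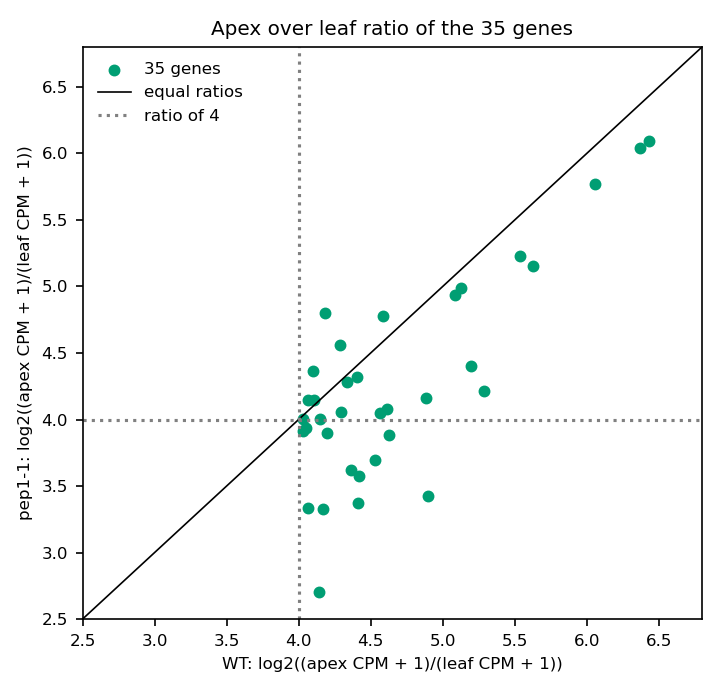
Apex over leaf ratio of each of the 35 genes in pep1-1 (vertical axis) against WT (horizontal axis), both as log2((mean apex CPM + 1)/(mean leaf CPM + 1)), with dotted lines at 4 and a solid line of equality. All points lie right of the vertical line by the rule, 23 lie at or above the horizontal one, and 29 lie below equality.

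Leaf expression of the set ran from nearly nothing to a substantial level. Mean levels were under 1 CPM for 9 genes in pep1-1 leaf and for 13 in WT leaf, between 1 and 10 CPM for 15 and 14 genes, and at 100 CPM or more for 5 and 3 genes, with the pep1-1 count first. No gene had 0 reads in all 6 leaf libraries. One, Aa_G530690 on chromosome 1 (6361358 to 6363818), had 0 reads in pep1-1 leaf among 87710342 reads over the 3 libraries, and 2 reads in WT leaf. A count of 0 allows up to 3 reads over the group, or 0.0342 CPM, so its pooled level of 5.53 CPM in pep1-1 apex was at least 162-fold higher. Such limits cover counting error only. The mean leaf level, as a percent of the apex level of the same genotype, had a median of 3.81% in pep1-1 (range 0 to 9.88%) and 2.92% in WT (range 0.0694% to 5.49%). The WT range is bounded above by the rule.

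The 4 genes with most reads in pep1-1 leaf are given here with their genotype values. The chromosome 3 gene (283964 to 288520) had 716 ± 138 CPM in pep1-1 leaf and 341 ± 63.0 CPM in WT leaf (SD, n = 3 each), and the libraries did not overlap. The chromosome 8 gene (20012448 to 20015883) had 99.5, 188 and 252 CPM in pep1-1 leaf and 190.4, 90.2 and 91.6 CPM in WT leaf, with 1 WT library inside the mutant range. The chromosome 4 gene (10512174 to 10513228) had 117, 99.9 and 108 CPM in pep1-1 leaf and 107, 106 and 124 CPM in WT leaf, and its groups overlapped throughout. The fourth is the chromosome 8 gene (9564898 to 9571836) described next.

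In leaf, 3 members of the set were called higher in pep1-1 than in WT and none lower, where 0.249% of 22936 genes tested were called higher and 0.166% lower. Aa_G110390 on chromosome 2 (16675259 to 16677143) had 8.13, 7.38 and 7.12 CPM in pep1-1 leaf and 2.91, 2.15 and 2.13 CPM in WT leaf. The libraries of the genotypes lay well apart. It had a log2 fold change of 1.67 (SE 0.16, edgeR adjusted p = 0.00281). Aa_G7910 on chromosome 8 (9564898 to 9571836) had 121, 127 and 152 CPM in pep1-1 leaf and 68.0, 57.4 and 59.4 CPM in WT leaf, again without overlap. The log2 fold change of this gene was 1.14 (SE 0.11, edgeR adjusted p = 0.0034). The third, on chromosome 3 (23398911 to 23405367), had 90.5, 97.1 and 127 CPM in pep1-1 leaf and 57.8, 51.7 and 46.5 CPM in WT leaf. Here the log2 fold change stood at 1.04 (SE 0.15, edgeR adjusted p = 0.0326), and its adjusted p was 0.0942, 0.106, 0.0805 and 0.129 without pep1-1 leaf replicate 1 or 2 or WT leaf replicate 2 or 3. Its log2 fold change was then 1.13, 1.1, 1.02 and 0.95, close to the value over all libraries.

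Of the 35 genes, 28 had enough leaf reads to be tested, and the other 7 had 0 to 56 reads over the pep1-1 leaf libraries and 2 to 14 over the WT leaf libraries. The WT leaf libraries also entered the rule, which favours genes that happen to be low there, so an upward lean was built into this comparison. The log2 fold change was above 0 for 25 of the 28 genes, with a median of 0.71, beside 50.1% of all genes tested and a median of 0.00. The median of the set was 1.03 without WT leaf replicate 1, whose summed level of the 35 genes, 999.8 CPM, lay above the 756 and 761 CPM of the other WT leaf libraries and below the 1264, 1339 and 1741 CPM of the pep1-1 leaf libraries. The number of members called was then 7 in place of 3, while calls over all genes numbered 445 in place of 95. When genes were chosen by the same formula on pep1-1 libraries, which adds a lean the other way in leaf, the median over the 22 of 27 genes tested was 0.55. Of those 27 genes, 23 are also members, so the lean of the WT rule remains in them.

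Among members that did not pass, the chromosome 3 gene (283964 to 288520) had a log2 fold change of 1.1 (SE 0.18, edgeR adjusted p = 0.0585), and a gene on chromosome 3 (3173544 to 3178540) one of 1.8 (SE 0.33, edgeR adjusted p = 0.0643). That gene had 2.31, 2.89 and 3.97 CPM in pep1-1 leaf and 1.29, 0.595 and 0.681 CPM in WT leaf. The largest estimate, 2.51 for the gene on chromosome 8 (36320864 to 36324768), had an SE of 0.89 and rested on 149 reads in pep1-1 leaf and 29 in WT leaf. Pep1-1 leaf libraries lay above all WT leaf libraries for 12 of 35 genes, and for 5.11% of genes with reads. None of the 35 showed the reverse, against 9.18% of genes with reads. The upward lean of the rule in leaf bears on both of these counts. With TMM scaling the count above was 13.

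As a share of the apex level, the leaf differences varied from gene to gene. The mean in pep1-1 leaf minus the mean in WT leaf, as a percent of the level in pep1-1 apex, ran from -0.608% to 5.32% with a median of 0.892%. It was 5.32% for Aa_G7910, 4.39% and 4.06% for the chromosome 3 genes at 283964 to 288520 and 23398911 to 23405367. It was 0.559% for the chromosome 7 gene (24939160 to 24941576), 0.0305% for the chromosome 5 gene (6951408 to 6952862) and -0.135% for the chromosome 4 gene (10512174 to 10513228). These last 3 genes are among the 7 with a mean over 1000 CPM in pep1-1 apex. The leaf level of the chromosome 5 gene was 61.6 ± 6.67 CPM in pep1-1 and 61.3 ± 4.78 CPM in WT (SD, n = 3 each). The summed level of the 35 genes is made up of these values, and what lay behind the differences was not tested.

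**Figure D3:**
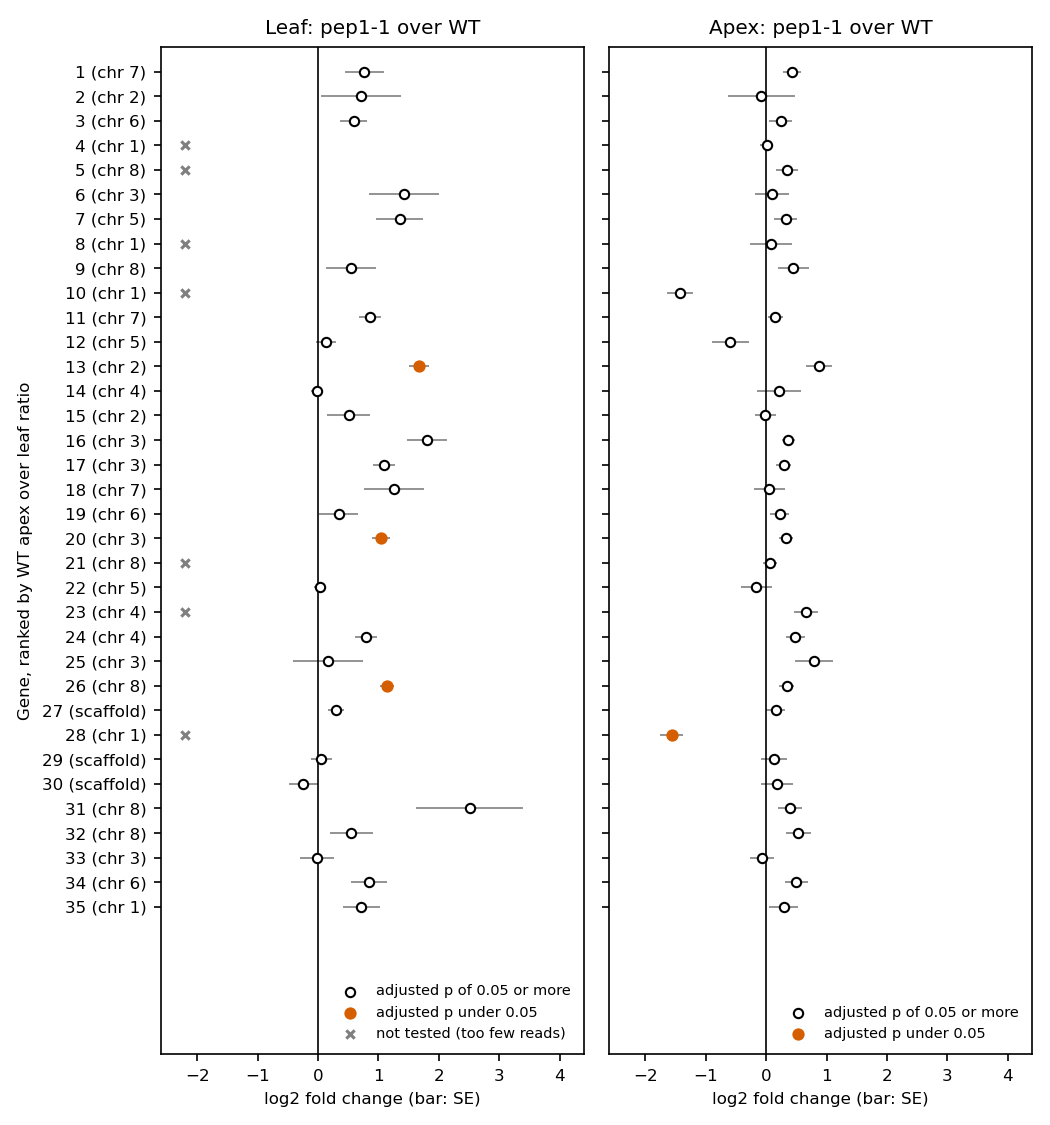
Log2 fold change of pep1-1 over WT in leaf (left) and apex (right) for each of the 35 genes, with its SE, filled where the edgeR adjusted p was under 0.05 and crossed where leaf reads were too few to test. In leaf 3 genes passed, all higher in pep1-1; in apex 1 passed, lower in pep1-1.

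In apex, the main test, which ignored replicate numbers, called 1 member lower in pep1-1 and none higher. Of 22157 genes tested, 0.0812% were called lower and 0.153% higher. Aa_G530690 had 5.71, 4.86 and 6.0 CPM in pep1-1 apex and 21.5, 15.8 and 13.8 CPM in WT apex. It had a log2 fold change of -1.57 (SE 0.19, edgeR adjusted p = 0.0256). Its immediate neighbour Aa_G530680 (6363948 to 6366416), 129 bp away and also a member, had 12.0, 11.5 and 9.29 CPM in pep1-1 apex and 40.5, 27.3 and 23.6 CPM in WT apex. The neighbour had a log2 fold change of -1.43 (SE 0.21, edgeR adjusted p = 0.0537), which missed the threshold. For both genes every pep1-1 apex library lay below every WT apex library. The adjusted p of Aa_G530690 was 0.0835 when pep1-1 apex replicate 1 was left out, 0.0642 when pep1-1 apex replicate 3 was, and 0.0849 when WT apex replicate 2 was. The log2 fold changes were then -1.59, -1.64 and -1.64.

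The genes next to this pair did not share its profile. On one side the nearest gene (6350875 to 6352480) had no reads in any group. On the other, the gene at 6377548 to 6380352 had 28.8 CPM in pep1-1 apex, 31.0 CPM in WT apex, 46.8 CPM in pep1-1 leaf and 52.8 CPM in WT leaf, with a log2 fold change in apex of -0.04 (edgeR adjusted p = 0.91). Whether the members of the pair are near-identical copies, between which reads could be split, was not tested, and their separate values are uncertain to that extent. Neither overlaps another gene model.

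**Figure D4:**
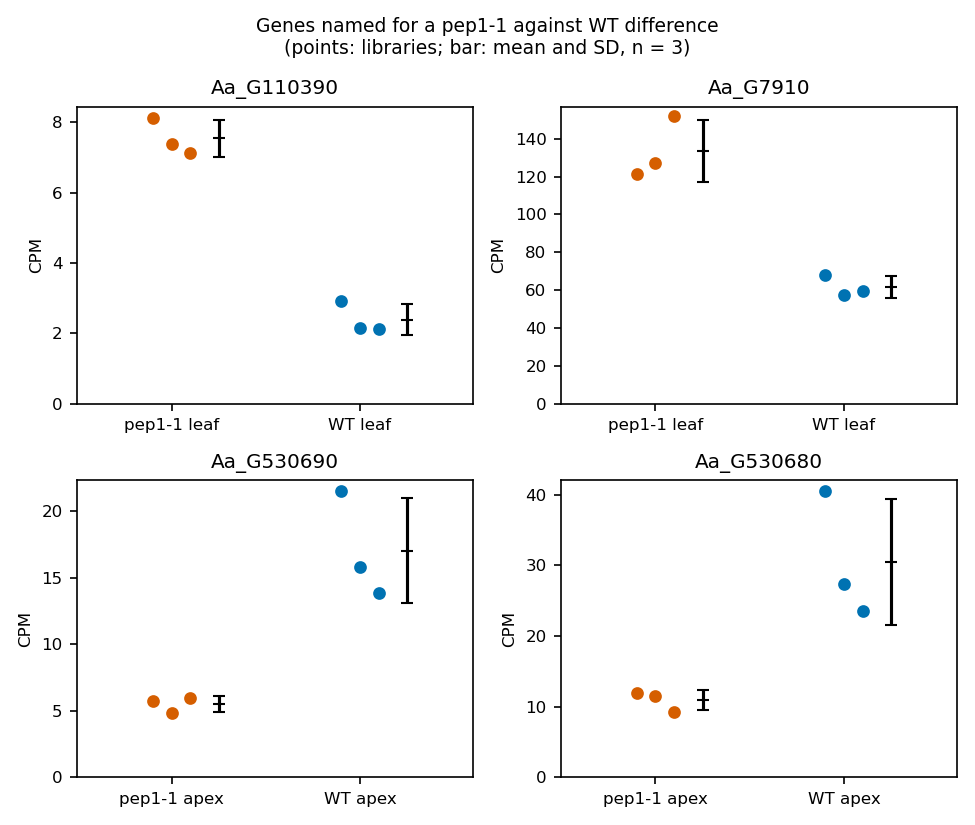
CPM in each library (points) with mean and SD (bars, n = 3) for Aa_G110390 and Aa_G7910 in leaf and for the neighbours Aa_G530690 and Aa_G530680 in apex, pep1-1 left of WT. The groups do not overlap in any panel, with pep1-1 above WT in leaf and below WT in apex.

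All 35 genes were tested in apex. The WT apex libraries entered the rule as well, which favours genes that happen to be high there and so leans this comparison downward. The log2 fold change was above 0 for 28 of 35 genes, with a median of 0.22, beside 48.3% of all genes tested and a median of -0.01. With 1 library left out that median ran from 0.12 to 0.36. It was 0.12 without pep1-1 apex replicate 3, whose summed level of the set, 31287 CPM, was the highest of all libraries, 0.36 when pep1-1 apex replicate 1 was left out and 0.35 when WT apex replicate 3 was. With library totals in place of TMM, 24 of 35 genes had the higher mean in pep1-1 apex. Pep1-1 apex libraries lay above all WT apex libraries for 3 genes (4.48% of genes with reads) and below them for 2 (10.9%). With TMM scaling these counts were 7 and 2. The largest positive estimate was that of Aa_G110390, with 131, 105 and 194 CPM in pep1-1 apex and 72.5, 79.6 and 94.4 CPM in WT apex. It had a log2 fold change of 0.88 (SE 0.22, edgeR adjusted p = 0.187), and its groups did not overlap.

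Whether the genotype difference itself differs between organs was tested with the interaction term over all 12 libraries. No member passed in edgeR, nor did any of 23517 genes (0% called), where 4.21% had an unadjusted p under 0.05. Of the 28 members with enough leaf reads, 8 had an unadjusted p under 0.05; 7 others entered through their apex reads alone, 2 of them with such a p on few leaf reads. DESeq2 called 1 member and limma with voom called 0. The member called by DESeq2 was the chromosome 3 gene (3173544 to 3178540), whose log2 interaction was -1.44 (DESeq2 adjusted p = 0.0303). The median interaction was -0.40 on the log2 scale over those 28 members and -0.61 over all 35, beside -0.03 over all genes. With 1 library left out the median over all 35 ran from -0.72 to -0.38, the last without WT apex replicate 3. A negative lean was built in because both WT groups chose the genes. The median was -0.36 for the 27 genes chosen on pep1-1 libraries, 23 of which are also members.

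In leaf, the set lay at the end of a graded pattern among genes with a ratio above 0. Genes grouped by their WT apex over leaf ratio had median log2 fold changes of pep1-1 over WT in leaf of 0.07 (ratio 0 to 1), 0.17 (1 to 2), 0.29 (2 to 3), 0.49 (3 to 4) and 0.71 (4 or more). In apex the same medians were 0.05, 0.11, 0.16, 0.24 and 0.22. Grouping on the pep1-1 libraries instead gave 0.06, 0.17, 0.27, 0.44 and 0.55 in leaf and 0.08, 0.16, 0.22, 0.35 and 0.22 in apex. Genes with a ratio under -2, which are leaf-preferred, had medians in leaf of -0.06 when grouped on pep1-1 libraries and -0.08 when grouped on WT, and in apex of -0.24 and -0.14. Either grouping shares libraries with the fold changes, so these medians are a description. The shift was therefore not confined to the 35 genes, and in leaf its median was largest in the highest group under both groupings.

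**Figure D5:**
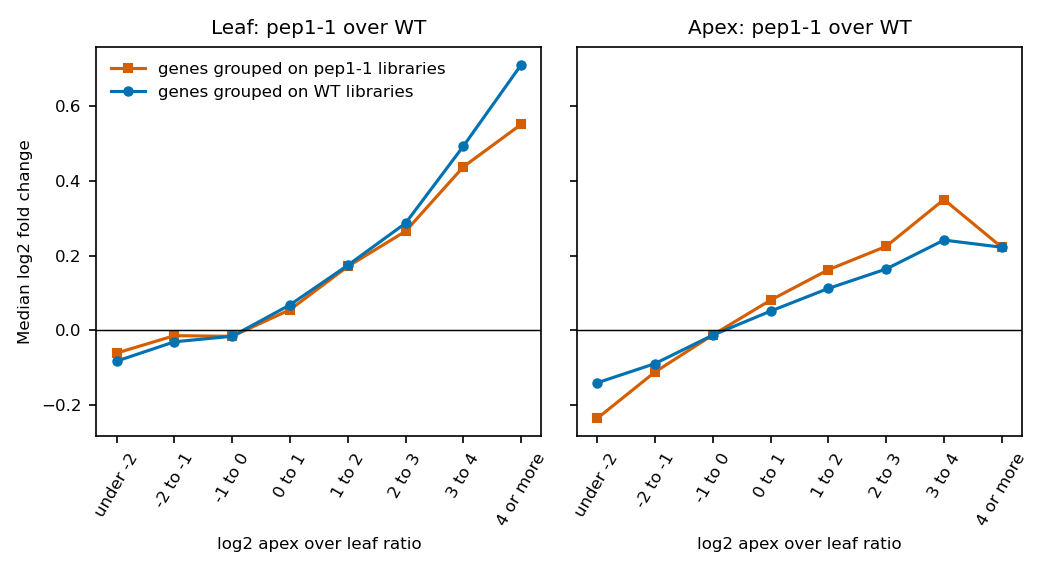
Median log2 fold change of pep1-1 over WT in leaf (left) and apex (right) for genes grouped by their log2 apex over leaf ratio, measured on pep1-1 libraries (squares) or WT libraries (circles). In leaf the medians reach 0.55 and 0.71 in the highest group; in apex they reach 0.35 and 0.24 in the group from 3 to 4.

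The 35 genes were scattered over the genome. All 8 chromosomes carried between 3 and 6 of them, and 3 lay on separate scaffolds. Chromosomes 3 and 8 carried 6 each, or 17.1% of the set, where 14.1% and 18.9% of the 9237 genes of like WT apex level lie. The pair on chromosome 1 was the single case of members next to each other. A second pair lay within 50 kb, on chromosome 6 (14478184 to 14483535 and 14500402 to 14504101), with a gap of 16866 bp and 3 genes between. The next smallest gap was 403069 bp. Of the chromosome 6 pair, the first had 30.9, 38.2 and 47.9 CPM in pep1-1 apex and 25.6, 25.5 and 35.9 CPM in WT apex, and the second 54.1, 69.4 and 65.2 CPM in pep1-1 apex and 45.1, 54.3 and 70.6 CPM in WT apex, with overlap between genotypes in each.

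Genes flanking the set rarely shared its organ preference. Of 64 flanking genes outside the set, 3 had a WT ratio of 2 or more and 47 lay between -1 and 1, with a median of 0.00, and 20 had less than 1 CPM in WT apex. Across all genes 1.22% had a ratio of 2 or more, a smaller share than among these 64 flanking genes. The steepest of these neighbours, beside the chromosome 4 gene (10512174 to 10513228), had a ratio of 3.13. Annotated spans of the set ran from 312 to 6939 bp with a median of 2415 bp, beside 2565 bp for genes of like WT apex level. Several transcripts were annotated for 3 members (8.57%), beside 7.22% of those genes. All 5 further transcripts of these 3 members also had a WT ratio of 4 or more, though transcripts of a gene share reads. No member overlaps another gene model.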

How the data were processed

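The authors deposited raw RNA-seq counts for each annotated transcript in 2 tables, 1 for apex and 1 for leaf, each with 6 libraries. TopHat, bedtools and DESeq2 1.10.0 are named, without roles, in the submitters' processing notes; the build, the annotation and whether counting used strand are not stated in these sources. Libraries were made from poly(A) RNA (4 µg total RNA input, 12 PCR cycles), per the labels' protocols. Without a stated strand setting, reads of antisense genes cannot be assigned.

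The transcript with most reads over the 12 libraries stood for each gene. CPM used the library total of these rows. Fold changes, SE (absolute log2 fold change divided by the root of the F statistic) and p came from edgeR 4.0.16 (R 4.3.3): quasi-likelihood test, TMM, filterByExpr, Benjamini-Hochberg over all genes tested, threshold 0.05. Genotype comparisons used 6 libraries of 1 organ, the organ comparison 6 of pep1-1, the interaction 12. The procedure was run on simulated counts for the organ comparison and the genotype comparisons, but not for the interaction. Those libraries were drawn independently with few genes changed, unlike the organ comparison here, so they do not vouch for these data. Alternatives were DESeq2 1.42.0, limma 3.58.1 with voom, other scaling, filter, threshold, membership and pooled fits, the replicate number as a block, and each library left out. Depth was 19746210 to 43695184 reads per library, which limits values of genes with few leaf reads.

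Members and lists were chosen with earlier results of these data known. Named genes were those with most reads in WT apex or pep1-1 leaf, those nearest the threshold, those called between genotypes, those with the lowest pep1-1 ratio or widest pep1-1 apex spread, and neighbouring members; other genes were named after their values were seen. Same-numbered pep1-1 and WT libraries had correlated deviations of 0.0417, 0.204 and -0.0897 in leaf and 0.309, -0.00648 and 0.279 in apex. Same-numbered pep1-1 apex and leaf libraries had 0.117, -0.0639 and -0.0129. Replicate numbers therefore did not pair libraries in leaf or between organs. In apex, replicates 1 and 3 deviated together across genotypes. There pep1-1 replicate 1 with WT replicate 3 gave -0.299, and pep1-1 replicate 3 with WT replicate 1 gave -0.294. The main apex test ignored replicate numbers, and what these apex libraries shared was not tested. The lists of meristem, leaf and root markers were not tested, since identifiers are not paired with names.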

Additional observations from a re-analysis of the deposited data

How the results depend on the processing

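All 35 members were called higher in pep1-1 apex than in pep1-1 leaf under every alternative run. In the main run 8 of them entered through apex reads alone and so had to differ. Medians over all 35, those 8 included, were 5.05 to 5.39 with 1 library left out, beside 5.24 with none left out. Leaf calls numbered 8 with the DESeq2 Wald test and 5 with all 12 libraries in one fit, and 2 to 7 with 1 library left out; the leaf median was then 0.59 to 1.03. Apex calls numbered 3 with DESeq2, 3 in the fit of all 12 libraries, 0 at an adjusted p under 0.01 and 0 to 1 with 1 library left out. The interaction gave 1 call with DESeq2. The replicate block, kept out of the main tests, gave 35 organ calls, 2 in leaf, 10 in apex (8 higher) and 0 for the interaction. Over all genes, leaf calls numbered 95, but 322 with DESeq2, 54 with the block and 445 without WT leaf replicate 1; apex calls numbered 52, but 412 with DESeq2, 600 with the block and 320 in the fit of all 12 libraries. The rule itself gave 21 genes with a pseudocount of 2 CPM, 113 at log2 of 3, 9 at log2 of 5 and 55 with TMM factors, the last holding all 35, and 29 to 39 with 1 WT library left out. With a pseudocount of 2 CPM, 13 members reached 4 in pep1-1, and 17 to 26 with 1 library left out. Summed leaf level, pep1-1 over WT, was 1.73, and 1.55 to 1.91 with 1 library left out. Its alternatives were chosen after seeing the data. The mean sum was 1448 CPM in pep1-1 leaf and 839 CPM in WT leaf. Aa_G593160 alone was 375 CPM higher in pep1-1 leaf. Sums were also taken without the 3 genes with most reads in WT apex, Aa_G593160 among them. These sums were 423, 403 and 505 CPM in pep1-1 leaf and 289, 249 and 247 CPM in WT leaf. The rule favours genes low in WT leaf, which leans the ratio upward. No result reversed. The causes of these shifts were not tested, beyond the stricter threshold and the rule's own settings. Depth limits the 7 members with too few leaf reads.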

Other observations

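In all, 4 genes met the formula in pep1-1 but not in WT. A gene on chromosome 4 (13836170 to 13837749) had 41.4 CPM in pep1-1 apex, 11.7 CPM in WT apex, 1.22 CPM in pep1-1 leaf and 0.229 CPM in WT leaf, with ratios of 4.26 in pep1-1 and 3.37 in WT. A gene on chromosome 3 (8957515 to 8959769) had 36.2 CPM in pep1-1 apex, 11.2 CPM in WT apex, 1.02 CPM in pep1-1 leaf and 0.680 CPM in WT leaf, with ratios of 4.20 and 2.86. Both lay below the 15 CPM in WT apex that the rule needs. The other two, on chromosome 8 (19905283 to 19909273) and chromosome 7 (27848634 to 27851307), had ratios of 4.23 and 4.00 in pep1-1 and 3.55 and 3.86 in WT. Among the 4349 transcripts not used for any gene, none of a gene outside the set had a WT ratio of 4 or more.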
